A study of Populus trichocarpa with 9 samples.

Results

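The transcription factor (TF) PtrHSFB3-1 was overexpressed in protoplasts of stem-differentiating xylem (SDX) of P. trichocarpa, and its 3 RNA-seq libraries were compared with 3 libraries of protoplasts that expressed GFP alone. These 6 libraries were taken from the 9 of the series by the construct named in the labels, and all 41335 genes of the deposited table were considered. The remaining 3 libraries, from protoplasts overexpressing PtrMYB092, served as a second reference, lent their spread to the test and counted toward the filter on low values. SDX protoplasts are cells taken from the wood-forming tissue of the stem and freed of their walls, here from 6-month-old trees of the Nisqually-1 genotype. They were transfected with polyethylene glycol and collected 12 h later. The PtrHSFB3-1 plasmid carried the TF and, from a second cassette, sGFP, each driven by the constitutive cauliflower mosaic virus 35S promoter, and the GFP plasmid carried sGFP alone under the same promoter. Each library therefore averages over protoplasts that did and did not take up a plasmid, and a change in the number of responding cells cannot be told apart from a change in RNA per cell. The comparison asks which transcripts of these protoplasts respond to an excess of PtrHSFB3-1. The 3 libraries per construct are biological replicates by the paper's account. Whether each had its own tree is not known here, and the p-values reflect only how far these particular libraries scatter.

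Heat shock factors bind heat shock elements in promoters through a conserved DNA-binding domain. Class A members carry activation motifs and drive the heat stress response, whereas class B members, to which HSFB3 proteins belong, lack the typical class A activation motif and several act as repressors in Arabidopsis and tomato. The monolignol pathway supplies lignin, the phenolic polymer that stiffens the secondary walls of wood. It begins with the deamination of phenylalanine, passes through cinnamic and p-coumaric acid and their CoA and shikimate esters, and ends with coniferyl and sinapyl alcohol, the precursors of guaiacyl (G) and syringyl (S) units.

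The transgene was high in the libraries labelled for it. PtrHSFB3-1 (Potri.006G049200) had deposited values of 19859, 31149 and 42965 in PtrHSFB3-1 replicates 1, 2 and 3, against 67, 53 and 61 in the GFP libraries. It made up 4.01% to 9.08% of the column total in the PtrHSFB3-1 libraries. The table gives 1 value per gene, so the transcript of the plasmid and that of the native gene were not separated. PtrMYB092 (Potri.001G118800), the other TF of the study, was at 6, 6 and 4 with PtrHSFB3-1 and at 4, 5 and 4 with GFP. Both TF genes were taken out before scaling and were not tested.

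Column totals were 454442 to 495579 in the PtrHSFB3-1 libraries and 430158 to 477966 in the GFP libraries. The values are whole numbers labelled as raw counts, but low values were more even than reads drawn at random: among genes with a sum of 2 over a pair of libraries, 82.8% to 97.5% showed 1 and 1 (15 pairs), a split that random draws reach for 50% at most. Their scale is thus not known, nor how many reads stand behind a value. No interval or floor that needs a read count is given, and a gene at 0 is called listed at 0. Libraries with equal replicate numbers deviated together, so the replicate number was kept as a block and differences are given per pair.

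With PtrHSFB3-1, 669 of the 7364 genes tested were higher than with GFP and 1875 were lower, or 9.08% and 25.5% (limma with Benjamini-Hochberg adjustment, calls at 0.05 and at folds above 2 or below 0.8). These thresholds, which the study states, admit smaller decreases than increases. At 0.5-fold, the mirror image of the upper threshold, 281 genes were lower (3.82%), and the other 1594 lay between 0.5- and 0.8-fold. The filter asked for scaled values of 10 or more in 3 of the 9 libraries. Of the 669 higher genes, 128 reached 10 in the 3 PtrHSFB3-1 libraries and in no other, so that the filter itself fixed their direction, and 55 would not have entered without the PtrMYB092 libraries. The increases were also larger: 206 genes were over 4-fold and 66 over 10-fold higher, and 9 genes were under 0.25-fold, with 75 of the 206 among the genes that only PtrHSFB3-1 libraries carried through the filter. The median log2 fold change was 1.54 among the higher genes, -0.61 among the lower genes and -0.105 among all genes tested, on the log2(scaled value + 1) scale, which understates the change of genes with low values.

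**Figure D1:**
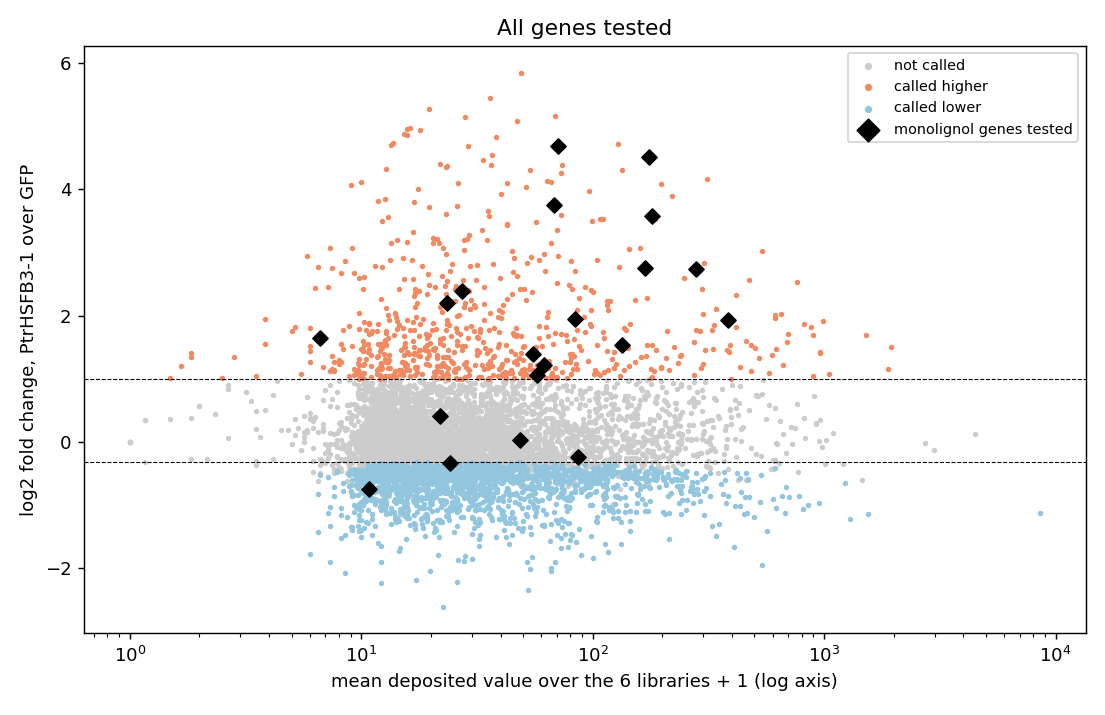
Log2 fold change of PtrHSFB3-1 over GFP against the mean deposited value over the 6 libraries plus 1 (log axis), with 1 point for each of the 7364 genes tested and dashed lines at the fold thresholds of 2 and 0.8. Orange points are the 669 genes called higher, blue points the 1875 called lower, and black diamonds the 20 monolignol genes tested, of which 15 lie above the upper line.

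The calls were made on the pair differences, so the agreement of pairs among called genes describes them and is no further evidence. All 669 higher genes were up in the 3 pairs (29.2% of all genes tested were), with median differences of 1.59, 1.58 and 1.62 in pairs 1, 2 and 3 on the log2 scale. For 558 of them every PtrHSFB3-1 value lay above every GFP value, as it did for 15.9% of all genes tested. Of the 1875 lower genes, 1867 were down in the 3 pairs (41.8% of all genes tested were) and 1243 had every PtrHSFB3-1 value below every GFP value, as did 21.1% of all genes tested. The count of lower genes rested on the pairing and on single libraries. It was 1145 without GFP replicate 1 and 971 without GFP replicate 3, and 670 without the libraries numbered 2. With no replicate block it was 426, beside 456 higher genes. Without the libraries numbered 1 the higher genes numbered 417, in a fit that the 128 genes carried by PtrHSFB3-1 libraries alone could not enter.

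Lower genes were more frequent at higher levels. Genes were ordered by their mean log2(scaled value + 1) over the 9 libraries, those of PtrMYB092 included, and split into 4 equal bins of 1841. In the bin of the lowest values 18.8% were lower with PtrHSFB3-1, in the next bins 22.8% and 28.4%, and in the bin of the highest values 31.9%. The share of higher genes was 14%, 6.3%, 6.46% and 9.61% in the same order. Genes of the lowest bin with a small GFP value could pass the filter through their PtrHSFB3-1 libraries, and 122 of its 257 higher genes reached 10 in PtrHSFB3-1 libraries alone, so the shares of that bin depend on the filter. The log2(scaled value + 1) scale also understates changes at low values. How far this shapes the rise of lower genes over the bins was not tested. The gene with the highest value in every GFP library, for which no name was at hand, had 3332, 3914 and 8110 with PtrHSFB3-1, against 7285, 10247 and 18510 with GFP. The groups overlapped because replicate 3 was high in both, but every pair was lower, and the gene fell by 1.13 on the log2 scale (SE 0.176, limma adjusted p = 0.0012).

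**Figure D2:**
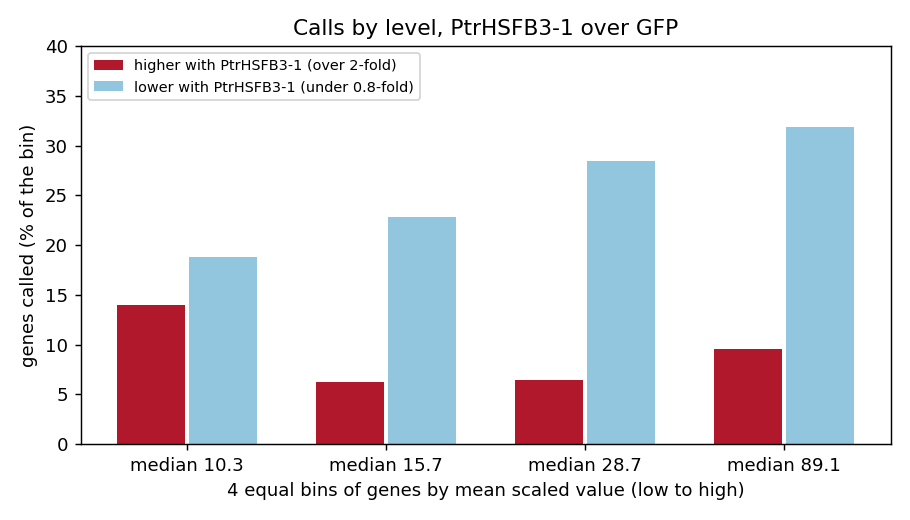
Percentage of genes called higher (red) and lower (blue) with PtrHSFB3-1 in 4 equal bins of the 7364 genes. Genes were ordered by mean log2(scaled value + 1) over the 9 libraries, and each bin is labelled with the median of its mean scaled values. Lower genes made up 18.8% of the lowest bin and 31.9% of the highest.

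The monolignol genes were mostly higher. Of the 22 in the list, 20 were tested, and 15 of these (75%, beside 9.08% of all genes tested) were higher with PtrHSFB3-1, 1 was lower and 4 were not called. Their median log2 fold change was 1.79, beside -0.105 for all genes. The higher genes belonged to steps between phenylalanine and feruloyl-CoA and to its reduction. They were PtrPAL1 to PtrPAL5, PtrC4H1, PtrC4H2, Ptr4CL3, Ptr4CL5, PtrHCT6, PtrC3H3, PtrCSE1, PtrCCoAOMT1, PtrCCoAOMT2 and PtrCCR2. At the HCT step 1 gene was higher and 1 lower, and both entered the test only through the PtrMYB092 libraries. The genes not called were PtrCSE2, PtrCAD1, PtrCAld5H2 and PtrAldOMT2, and the lower gene was PtrHCT1. The list comes from the study's own tables, which were made with these libraries in view, so it is not independent evidence of a direction. Between 14 and 15 of the list were higher whichever single library was left out, 14 with the 6 libraries of the comparison alone, and 11 with no replicate block.

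**Figure D3:**
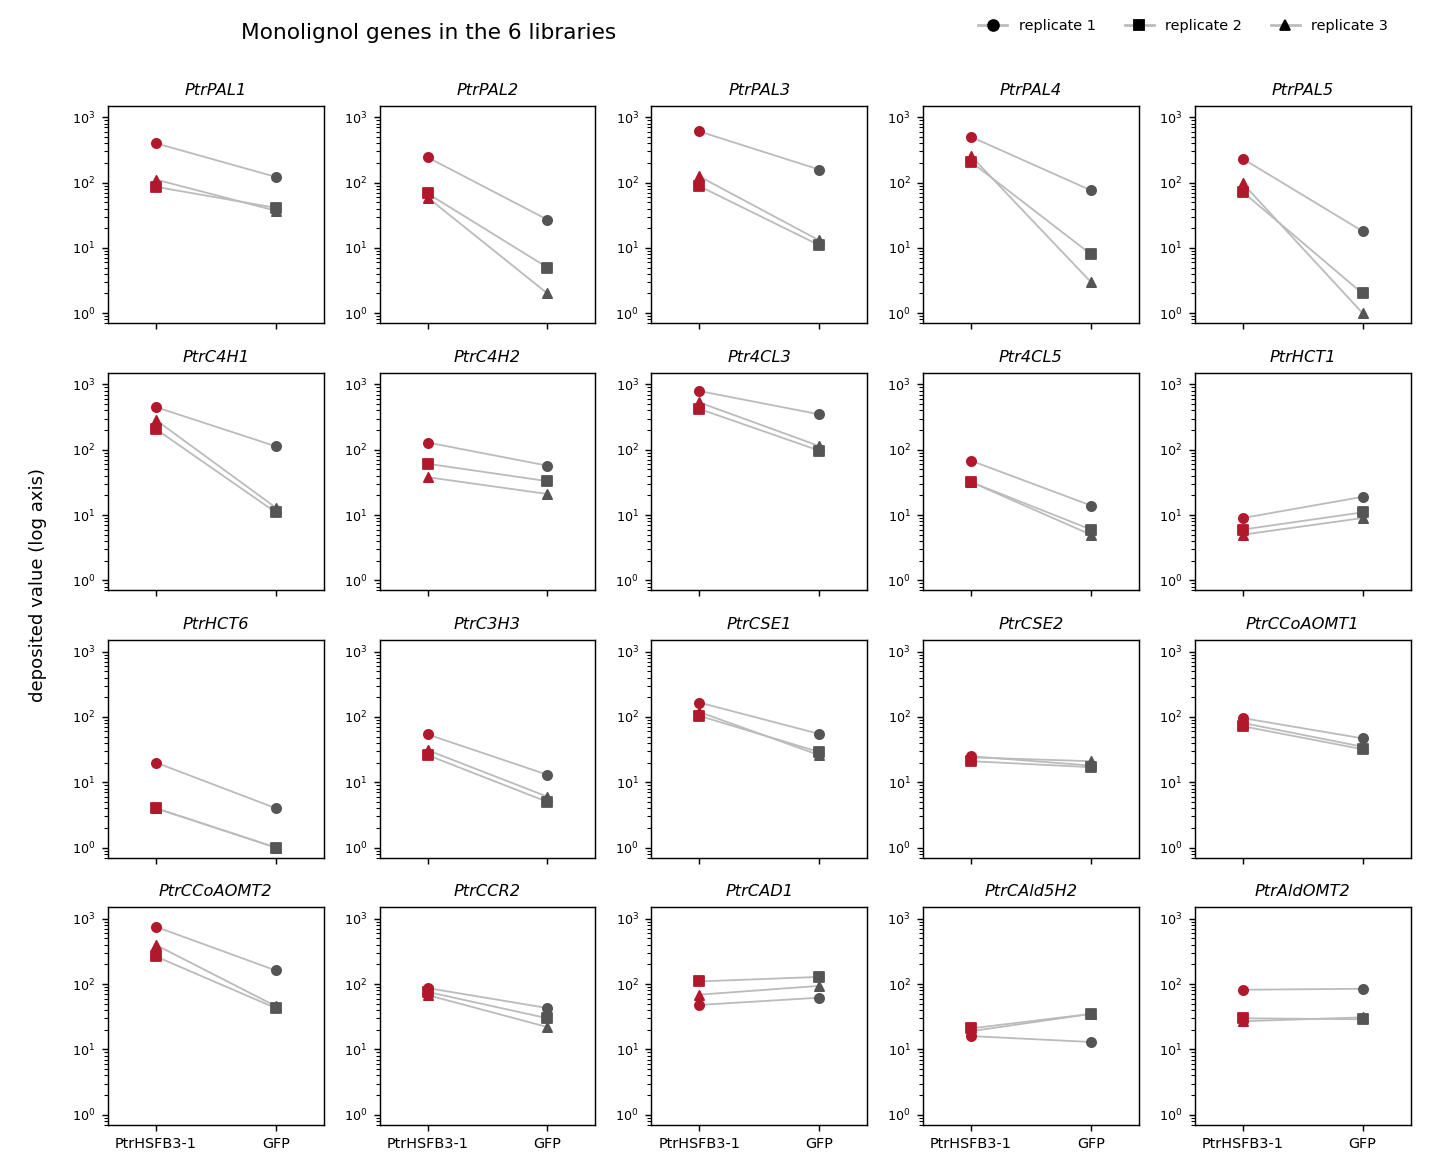
Deposited values (log axis) of the 20 monolignol genes tested, with PtrHSFB3-1 on the left and GFP on the right of each panel and grey lines joining libraries of equal replicate number. Lines fall toward GFP in all 3 pairs for 16 genes, and replicate 1 (circles) is the highest PtrHSFB3-1 library in 18.

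Phenylalanine ammonia-lyase (PAL) commits phenylalanine to the pathway, and all 5 of its genes were higher. PtrPAL5 (Potri.010G224200) had 231, 72 and 97 with PtrHSFB3-1, against 18, 2 and 1 with GFP, so that the groups did not overlap, although each was widely spread. It rose by 4.69 on the log2 scale (SE 0.44, limma adjusted p = 8.91e-05). PtrPAL4 (Potri.010G224100), its neighbour by ID on chromosome 10, had 501, 207 and 255 with PtrHSFB3-1, against 76, 8 and 3 with GFP. The PtrPAL4 groups did not overlap, but its pairs differed widely, by 2.87, 4.61 and 6.04. Its log2 fold change of 4.51 (SE 0.61, limma adjusted p = 0.000621) was 5.48 without GFP replicate 1 and 3.65 without GFP replicate 3. Without GFP replicate 1 that of PtrPAL5 was 5.34.

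These neighbours are close in sequence over the stretch of a primer. The forward primers that the study designed for RT-qPCR are shown, and capitals mark the bases that differ within a pair.
PtrPAL4: gagatgctggaagctatcaccaaAT
PtrPAL5: gagatgctggaagctatcaccaaGC
PtrPAL1: ccatccaggtcaaattgaggctgcT
PtrPAL3: catccaggtcaaattgaggctgcA
The PtrPAL4 and PtrPAL5 primers differ at 2 of 25 bases and share 1 reverse primer. Those of PtrPAL1 and PtrPAL3 differ at 1 of the 24 bases they have in common, and their reverse primers are not the same. How reads shared by paralogs were counted is not given in the sources used here, so the split of values within each of these pairs is uncertain.

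PtrPAL2 (Potri.008G038200) had 243, 68 and 59 with PtrHSFB3-1, against 27, 5 and 2 with GFP. Every PtrHSFB3-1 library was above every GFP library, and the log2 fold change was 3.74 (SE 0.47, limma adjusted p = 0.000412). PtrPAL3 (Potri.016G091100) had 606, 88 and 124, against 158, 11 and 13 with GFP, and PtrPAL1 (Potri.006G126800) had 399, 86 and 111, against 122, 41 and 37 with GFP. In both genes GFP replicate 1 lay above PtrHSFB3-1 replicates 2 and 3, so the groups overlapped while every pair was higher. Their log2 fold changes were 2.76 (SE 0.45, limma adjusted p = 0.00148) for PtrPAL3, or 3.37 without GFP replicate 1, and 1.54 (SE 0.23, limma adjusted p = 0.00101) for PtrPAL1. With no replicate block neither passed the test (limma adjusted p = 0.111 for PtrPAL3 and 0.154 for PtrPAL1).

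Cinnamate 4-hydroxylase (C4H) hydroxylates cinnamic acid to p-coumaric acid. PtrC4H1 (Potri.013G157900) had 449, 207 and 285 with PtrHSFB3-1, against 113, 11 and 13 with GFP. The groups were apart, and GFP replicate 1 stood well above the other GFP libraries. The log2 fold change was 3.58 (SE 0.48, limma adjusted p = 0.000582), and 4.41 without GFP replicate 1. PtrC4H2 (Potri.019G130700) changed less, with 129, 61 and 38 against 57, 33 and 21 with GFP. Its groups overlapped, its fold of 2.08 was just past the threshold, and the log2 fold change was 1.05 (SE 0.32, limma adjusted p = 0.0252). The call was lost in 11 of 23 other settings. These were columns scaled by totals, a pseudocount of 5, every gene above 0 tested, an adjusted p under 0.01, no replicate block, PtrHSFB3-1 replicate 1 or 2 left out, GFP replicate 2 or 3 left out, and all libraries numbered 1 or 2 left out. With a library or a number left out the log2 fold change was 0.73 to 1.36.

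4-Coumarate:CoA ligase (4CL) activates p-coumaric acid as its CoA ester. Ptr4CL3 (Potri.001G036900) had 792, 422 and 529 with PtrHSFB3-1, against 349, 97 and 114 with GFP. Its groups did not overlap, with a 3.82-fold increase (limma adjusted p = 0.000573). Ptr4CL5 (Potri.003G188500) had 68, 32 and 32, against 14, 6 and 5 with GFP, and its groups did not overlap. Its pairs were among the most even of the pathway, at 2.36, 2.31 and 2.50 (log2 fold change 2.39, SE 0.17, limma adjusted p = 2.11e-05).

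Hydroxycinnamoyl-CoA:shikimate hydroxycinnamoyl transferase (HCT) makes p-coumaroyl shikimate. Its 2 genes had low values with PtrHSFB3-1 and GFP and entered the test only through the PtrMYB092 libraries, at 61, 32 and 40 for PtrHCT6 and 52, 35 and 42 for PtrHCT1. With the 6 libraries of the comparison alone neither passed the filter, so neither call could be made. PtrHCT6 (Potri.001G042900) had 20, 4 and 4 with PtrHSFB3-1, against 4, 1 and 1 with GFP, a log2 fold change of 1.64 (SE 0.26, limma adjusted p = 0.00137). PtrHCT1 (Potri.003G183900) had 9, 6 and 5 with PtrHSFB3-1, against 19, 11 and 9 with GFP, and fell by 0.74 on the log2 scale (SE 0.15, limma adjusted p = 0.00475). The PtrHCT1 groups met at 9, although the value was lower in every pair. Neither passed with no replicate block (limma adjusted p = 0.11 for PtrHCT6 and 0.146 for PtrHCT1). With a pseudocount of 5 the log2 fold change of PtrHCT6 was 0.92, under the threshold.

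p-Coumaroyl shikimate 3-hydroxylase (C3H) and caffeoyl shikimate esterase (CSE) act on the shikimate esters that HCT makes. PtrC3H3 (Potri.006G033300) had 54, 26 and 31 with PtrHSFB3-1, against 13, 5 and 6 with GFP, a 4.61-fold increase with groups apart (limma adjusted p = 0.000121). PtrCSE1 (Potri.003G059200) had 166, 104 and 119, against 55, 29 and 26 with GFP. The lowest PtrHSFB3-1 value of PtrCSE1 was above the highest GFP value, and the increase was 3.85-fold, with the smallest adjusted p of the list (limma, 1.99e-05). PtrCSE2 (Potri.001G175000) had 25, 21 and 24, against 18, 17 and 21 with GFP, a log2 fold change of 0.41 that did not pass (SE 0.19, limma adjusted p = 0.102).

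Caffeoyl-CoA O-methyltransferase (CCoAOMT) methylates caffeoyl-CoA on the way to G units. PtrCCoAOMT2 (Potri.001G304800) had 755, 265 and 398 with PtrHSFB3-1, against 162, 43 and 46 with GFP. The groups were apart, and the gene rose 6.65-fold (limma adjusted p = 0.000182). PtrCCoAOMT1 (Potri.009G099800) had 96, 72 and 81, against 47, 32 and 35 with GFP, also apart, and rose 2.33-fold (limma adjusted p = 0.00144). PtrCCoAOMT3 (Potri.008G136600) was at 0, 1 and 0 with PtrHSFB3-1 and listed at 0 in every GFP library, and was not tested. Cinnamoyl-CoA reductase (CCR) turns feruloyl-CoA into coniferaldehyde. PtrCCR2 (Potri.003G181400) had 87, 76 and 68, against 43, 30 and 22 with GFP, a 2.64-fold increase with groups apart (limma adjusted p = 0.000643).

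The genes for the last reduction and for S units were not called. Cinnamyl alcohol dehydrogenase (CAD) reduces the aldehydes to alcohols, and PtrCAD1 (Potri.009G095800) had 48, 110 and 69 with PtrHSFB3-1, against 62, 129 and 94 with GFP. The log2 fold change of PtrCAD1 was -0.24 (SE 0.13, limma adjusted p = 0.164), and here replicate 2 was the highest library of both groups. Coniferaldehyde 5-hydroxylase (CAld5H) and 5-hydroxyconiferaldehyde O-methyltransferase (AldOMT) lead from coniferaldehyde to S units. PtrAldOMT2 (Potri.012G006400) had 82, 30 and 27, against 85, 29 and 31 with GFP, a log2 fold change of 0.04 (SE 0.23, limma adjusted p = 0.91) whose sign turned when columns were scaled by their totals. PtrCAld5H2 (Potri.007G016400) had 16, 21 and 19, against 13, 35 and 35 with GFP, with pair 1 up and pairs 2 and 3 down. Its log2 fold change of -0.33 (SE 0.22) did not pass (limma adjusted p = 0.253), whereas without PtrHSFB3-1 replicate 1 it was -0.65 and passed (limma adjusted p = 0.00946). PtrCAld5H1 (Potri.005G117500) was at 0, 1 and 1, against 1, 1 and 2 with GFP, and was not tested.

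Replicate 1 carried more monolignol transcript in both groups. Of the 20 genes tested, 18 had their highest PtrHSFB3-1 value in replicate 1 and 17 had their highest GFP value in replicate 1, with median gaps to the mean of replicates 2 and 3 of 1.12 and 1.28 on the log2 scale. The gap was 0.34 in the PtrMYB092 libraries, where replicate 1 was the highest for 10 genes. The share of all genes tested that were highest in replicate 1 was not counted. Whether the high replicate 1 is particular to the monolignol genes is therefore not known. The differences between pairs did not rest on 1 number. The count of monolignol genes up was 18, 17 and 16 of 20 in pairs 1, 2 and 3, with median differences of 1.80, 1.65 and 1.92, and 13 genes were still called higher without the libraries numbered 1.

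The PtrMYB092 libraries gave a direct comparison of the 2 TFs. Over all genes 693 were higher with PtrHSFB3-1 than with PtrMYB092 (9.41%) and 1371 lower (18.6%). Of the 7364 genes tested, 635 would not have entered without the PtrMYB092 libraries and 165 entered through PtrHSFB3-1 libraries alone. Both counts and their shares therefore depend in part on the filter. Of the 20 monolignol genes, 17 were lower with PtrHSFB3-1 than with PtrMYB092 and none was higher. The median log2 fold change was -1.86, beside -0.04 for all genes. Of the 17, 2 (PtrHCT1 and PtrHCT6) entered only through the PtrMYB092 libraries, where they were high, so these 2 calls are no test. Both are included in the count and in the median. The difference was widest for PtrC4H2, at 129, 61 and 38 with PtrHSFB3-1, against 822, 738 and 950 with PtrMYB092 (log2 fold change -3.56, SE 0.32, limma adjusted p = 4.27e-05). Every PtrHSFB3-1 value of PtrC4H2 was far below every PtrMYB092 value. PtrPAL2 followed with 243, 68 and 59, against 913, 741 and 933 with PtrMYB092 (log2 fold change -3.04, limma adjusted p = 0.000919). PtrPAL1 had 399, 86 and 111, against 1919, 883 and 1119 with PtrMYB092, and fell by 2.92 on the log2 scale (limma adjusted p = 2.22e-05).

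Some genes that were not higher than with GFP also differed between the TFs. PtrAldOMT2 was at 82, 30 and 27 with PtrHSFB3-1, against 285, 191 and 219 with PtrMYB092 (log2 fold change -2.40, limma adjusted p = 5.6e-05), and PtrCAD1 at 48, 110 and 69, against 147, 245 and 193 with PtrMYB092 (-1.35, limma adjusted p = 7.16e-05). PtrHCT1 had 9, 6 and 5, against 52, 35 and 42 with PtrMYB092, and having entered through the PtrMYB092 libraries alone, like PtrHCT6, it is given by its values with no test. The groups of PtrAldOMT2 and PtrHCT1 did not overlap, and the highest PtrCAD1 value with PtrHSFB3-1 was below the lowest with PtrMYB092. The genes with no call between the TFs were PtrCSE1, PtrC4H1 and PtrCAld5H2. PtrCSE1 had 166, 104 and 119, against 190, 122 and 139 with PtrMYB092 (log2 fold change -0.16, SE 0.14, limma adjusted p = 0.411). PtrC4H1 had 449, 207 and 285, against 585, 363 and 599 with PtrMYB092 (log2 fold change -0.69, SE 0.48, limma adjusted p = 0.283). Missing the threshold does not show that the TFs act alike on these genes.

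**Figure D4:**
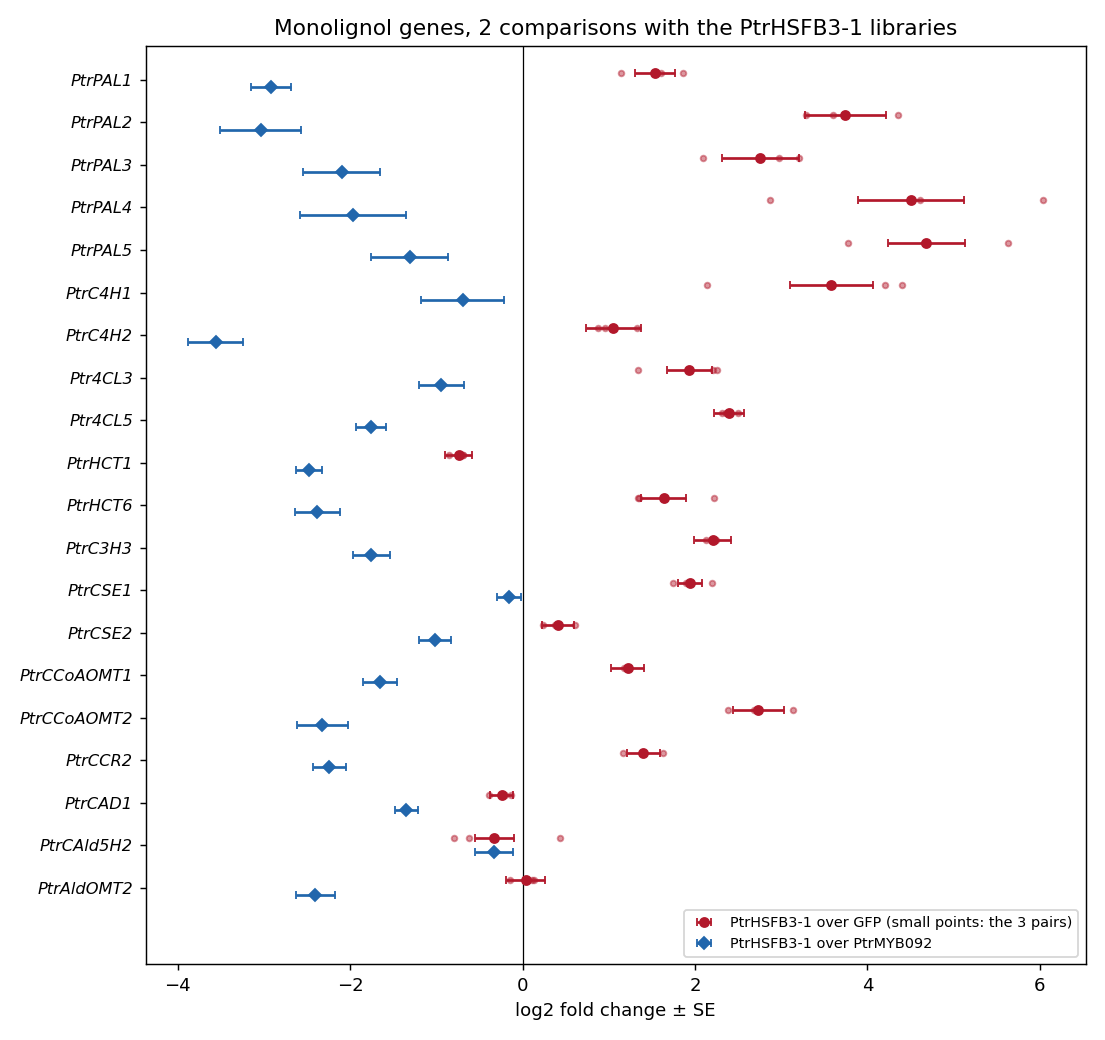
Log2 fold changes of the 20 monolignol genes tested, as PtrHSFB3-1 over GFP (red circles) and PtrHSFB3-1 over PtrMYB092 (blue diamonds), with bars of 1 standard error from the fit and small red points for the 3 pairs with GFP. Red circles lie right of 0 for most genes and blue diamonds lie left of 0 for all 20, nearest to 0 for PtrCSE1 at -0.16; both comparisons use the same PtrHSFB3-1 libraries.

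Genes of the other secondary wall polymers were at or near 0. The cellulose synthase genes of the secondary wall, PtrCesA4, PtrCesA7, PtrCesA8, PtrCesA17 and PtrCesA18, had values of at most 2 in every PtrHSFB3-1 and every GFP library, and PtrCesA18 was listed at 0 in all 6. PtrCslA2, of the glucomannan synthase family, and PtrIRX10-1, which acts on the xylan backbone, were listed at 0 in all 6 libraries. None of these 7 genes could be tested. The secondary wall CesA genes are defining markers of wood-forming xylem, and in the protoplasts of both groups they were at or near 0 at 12 h. The reference gene PtrActin (Potri.019G010400) had 89, 108 and 113 with PtrHSFB3-1, against 97, 100 and 98 with GFP, a log2 fold change of 0.17 that did not pass (SE 0.12, limma adjusted p = 0.285).

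PtrHSFB3-1 belongs to the genes that the study listed as repressed at 3 d in tension wood, the wood formed on the upper side of bent stems, which is rich in cellulose and poor in lignin. Of the 147 genes in that list, 43 were tested, and 12 were higher with PtrHSFB3-1 (27.9%) and 10 lower (23.3%), with a median log2 fold change of 0.02. The 12 included PtrPAL1, PtrPAL3 and PtrC4H2, and without these 3 the list had 9 higher of 40 tested and a median of -0.09. Of the 244 genes induced at 3 d, 32 were tested, and 8 were higher and 8 lower (25% each), also with a median of 0.02. In the protoplasts 119 of the 244 induced and 53 of the 147 repressed genes were listed at 0 in all 6 libraries. Zeros were common in the whole table too, where 27542 of 41335 genes were above 0 in any of the 9 libraries. The shares of higher genes were above the 9.08% of all genes in both lists, and the shares of lower genes were close to the 25.5% of all genes.

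The largest increases fell mostly on genes for which no name was at hand. Among genes with a mean scaled value of at least 5 with GFP, the 12 largest had log2 fold changes of 3.89 to 4.71, and the groups were apart in each. Of these, 2 passed the filter through PtrHSFB3-1 libraries alone. PtrPAL4 and PtrPAL5 were among the 12. The first of the other 10 was Potri.014G025500, with 442, 138 and 149 with PtrHSFB3-1, against 30, 4 and 3 with GFP and 105, 56 and 74 with PtrMYB092. It showed the same high replicate 1 as the PAL genes, and its log2 fold change over GFP was 4.71 (SE 0.36, limma adjusted p = 2.73e-05).

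A further 15 higher genes were listed at 0 in every GFP library, and 8 of these were listed at 0 in every PtrMYB092 library too. Their PtrHSFB3-1 values ran from 1 to 55, and 10 of them passed the filter through the PtrHSFB3-1 libraries alone, so these are a description and not a test. Potri.004G008300, with the highest minimum of these, had 40, 35 and 37 with PtrHSFB3-1, against 0, 0 and 0 with GFP and with PtrMYB092. All 3 pairs thus went the same way, and no fold is given against a group listed at 0. Of the 15 genes, 5 have IDs on chromosome 4, which held 425 of the 7364 genes tested. Of those 425, 52 were higher (12.2%, beside 9.08% of all genes tested). The share was larger on chromosome 19, at 13.9%, and on the scaffolds, at 15.3%. Chromosome 4 also held the longest run of neighbouring IDs that were all called higher, of 9 genes. Their values were 11 to 167 with PtrHSFB3-1, against 0 to 13 with GFP, and at most 37 with PtrMYB092. Of these, 8 passed the filter only through the PtrHSFB3-1 libraries, which fixed their direction, and 2 were listed at 0 in every GFP library, so the run is given by its values alone. Runs of at least 3 neighbouring IDs took in 49 of the 669 higher genes, in 13 runs, and 74 of the 1875 lower genes, in 20 runs. With 9.08% of all genes tested called higher and 25.5% called lower, some runs arise from the shares alone. How many would do so was not tested. PtrC4H2 closed one such run on chromosome 19, whose 3 genes rose by 1.05 to 1.12. How reads shared by near-identical neighbours were counted is not known here, and whether genes of a run share reads was not tested.

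The largest decreases were smaller in size than the largest increases. The 12 lowest genes with a mean scaled GFP value of at least 5 had log2 fold changes of -2.60 to -1.90, none had a name, and the groups were apart in 11. Potri.002G155400 had 3, 9 and 4 with PtrHSFB3-1, against 27, 39 and 48 with GFP and 41, 50 and 55 with PtrMYB092. It was low in each PtrHSFB3-1 library and in no other, with a log2 fold change over GFP of -2.60 (SE 0.24, limma adjusted p = 7.47e-05). Its neighbours by ID were also lower, in a run of 3 on chromosome 2 that fell by 1.77 or more. Potri.006G044200 had 7, 15 and 21 with PtrHSFB3-1, against 34, 85 and 149 with GFP and 42, 108 and 225 with PtrMYB092. Its 3 libraries differed several-fold within each group, yet the pair differences were even at -1.98, -2.33 and -2.72. The log2 fold change was -2.34 (SE 0.18, limma adjusted p = 3.17e-05), and with no replicate block it did not pass (limma adjusted p = 0.0547). The longest run of lower genes, 6 neighbouring IDs on chromosome 1, had values of 11 to 73 with PtrHSFB3-1, against 29 to 222 with GFP, and log2 fold changes of -2.05 to -0.67.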

How the data were processed

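RNA-seq values of SDX protoplasts of P. trichocarpa were analysed from 1 deposited table of 9 libraries. The authors mapped reads to the P. trichocarpa genome v3.0 with Bowtie 2 (TopHat in the submitters' processing notes). For counting tool, strand setting and shared reads the sources used here give nothing. The authors deposited whole numbers called raw counts, which were treated as a score because low values are too even for reads, and count models were not used.

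Groups came from the titles and the transfected gene in the labels. A description field of PtrMYB092 replicates 2 and 3 names PtrHSFB3-1, but the PtrMYB092 transcript was high in both, so the titles were used.

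Both TF genes were removed. Values were then scaled by an unweighted TMM (30% of ratios and 5% of levels trimmed at each end), and log2(scaled value + 1) was modelled in limma (version 3.58.1, R 4.3.3). Genes entered if scaled values reached 10 in 3 or more libraries, which 7364 of the 27542 above 0 did. One linear model over the 9 libraries had a mean per construct and a block per replicate number, leaving 4 residual degrees of freedom, with variances moderated by a trend. Steps were tested on simulated data. Fold changes are PtrHSFB3-1 over its reference.

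The numbers were checked for pairing. Deviations from group means correlated at 0.521 to 0.864 in the 9 pairs of libraries sharing a number. The 18 pairs between groups with unequal numbers gave -0.706 to 0.27. Deviations sum to 0 within a group, which holds these 18 down where same-number pairs are high, so the ranges are not independent. Libraries were paired by number because those sharing one deviated together. What a number stands for is not known here.

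Genes named were all those with a name in the study's tables, the 12 largest increases and 12 largest decreases that were called, had a mean scaled GFP value of at least 5 and moved the same way in all pairs, and the 6 genes listed at 0 in GFP with the highest minimum with PtrHSFB3-1. Of those without a name, at most 2 per direction are identified. Members, lists and tests were chosen with earlier results of these data known. Gene IDs matched the reference table for 0 of 41335 genes, so 32 lists that needed descriptions were not made and no coordinates are given. Alternatives were other scalings, pseudocounts, filters, thresholds, the 6 libraries alone, no block, and each library or number left out.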

Additional observations from a re-analysis of the deposited data

Results flagged for a closer look

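The level of PtrHSFB3-1 in the PtrMYB092 libraries is a value outside the comparison with GFP, and it was above the level in the GFP controls. By their titles these libraries received no PtrHSFB3-1 plasmid, but a description field of replicates 2 and 3 names PtrHSFB3-1. PtrHSFB3-1 was at 119, 105 and 165 in PtrMYB092 replicates 1, 2 and 3, against 67, 53 and 61 in the GFP libraries. It was above the GFP library of the same number in each of the 3 pairs, and the groups did not overlap. As a transgene it was not tested.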

How the results depend on the processing

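The number of lower genes depended most on the processing. The fit that blocks on replicate number called 1875 lower, and that with no replicate block 426, beside 456 higher (51.7% of calls, against 26.3% with the pairing). All 426 and all 456 were among the genes called with the block. The lower genes numbered 890 at an adjusted p under 0.01 and 281 at a fold under 0.5, and 670 to 1905 with a library or a replicate number left out. The higher genes numbered 417 to 680 with one left out and 1539 when every gene above 0 was tested. Monolignol genes higher than with GFP numbered 11 to 15 over all settings, and those lower than with PtrMYB092 13 to 18. These counts take in PtrHCT1 and PtrHCT6 wherever they were tested and called. PtrAldOMT2, never called, changed sign with columns scaled by totals (log2 fold change -0.021), and lay between -0.165 and 0.225 with a library or number left out. Beyond this effect of the filter, the cause of these changes was not tested. Depth is unknown, so how far low values are limited by reads cannot be given.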
